A study of Schizosaccharomyces pombe with 4 samples.

Results

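The genes described here encode the machinery that marks the ends of the rod-shaped fission yeast cell, together with *pil1*, which encodes the core protein of eisosomes. They were chosen by name: the landmark genes *tea1*, *tea3*, *tea4* and *mod5*, the microtubule genes *tea2* and *tip1*, the kinase gene *pom1*, the formin gene *for3*, and *pil1*. A probe under the symbol or systematic identifier was found for 8 of these 9 genes, among 4847 gene names on the array, and *tip1* was not found in this way. Transcript levels were compared between *sim3-205* cells and wild-type cells, and between *sim3-143* cells and wild-type cells, all from cultures of *Schizosaccharomyces pombe* in logarithmic growth. Sim3 is a histone chaperone related to NASP that binds the centromeric histone CENP-A, and both alleles are missense mutations of *sim3*. Beyond these alleles the labels name no genotype, growth temperature or medium.

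Each of the 4 arrays was a glass slide spotted with ORF probes and hybridized with cDNA of a mutant and of wild-type, one dye for each, with 2 arrays per allele. In replicate 1 of each allele the mutant cDNA carried Cy3, and in replicate 2 it carried Cy5. Every probe was printed in 2 spots, so a gene has 4 data points per allele. All values below are log2 ratios of mutant over wild-type unless an intensity is named, and means are given ± SD over arrays, with n = 2 arrays throughout. Nothing in the sources used here says whether the swapped arrays came from separate cultures, or whether one wild-type RNA served both alleles, so a p-value measures only the spread between these arrays.

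*pil1* and *tea4* belong here because they were known to be among the lowest genes of *sim3-205* in these same data. The members' *sim3-205* values below are therefore a description and carry no test. The difference of *pom1* between alleles uses its *sim3-205* values, so the p-values given for it are a description too. The *sim3-143* values, the difference of *pom1* between alleles, the dye coefficients and the values of genes that are not members come, where a test is given, with p-values from limma, a linear model fitted to all genes, adjusted by the Benjamini-Hochberg method. A gene was called past 1.5-fold when at least 3 of its 4 data points in an allele lay beyond 0.585 in the same direction.

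Fission yeast cells grow at their ends. Tea1 and Tea4 ride on the plus ends of microtubules to the cell tips, where the membrane protein Mod5 and the Tea1-like protein Tea3 help to anchor them, and Tea4 links Tea1 to the formin For3, which nucleates actin cables. The kinesin Tea2 and the CLIP-170 protein Tip1 keep microtubules growing towards the ends, and the kinase Pom1 spreads from the ends as a gradient that restrains division in short cells. Eisosomes are furrows of the plasma membrane along the cell sides, formed by filaments of the BAR-domain protein Pil1.

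The 4 arrays differed in spread, and arrays of one allele resembled each other only in part. Over genes, the log2 ratio had an SD of 0.661 on *sim3-205* replicate 1 and 0.378 on its replicate 2. On the *sim3-143* arrays the SD was 0.307 and 0.498. Across genes, which are not independent replicates, the log2 ratios of the arrays of an allele correlated with Pearson's r = 0.144 in *sim3-205* and 0.477 in *sim3-143*. In 3 of the 32 grids of *sim3-205* replicate 1 the intensities of the dyes were unrelated, and no member lies in these grids. Values from these grids were kept in the counts and medians over all genes and over the gene lists below. The *sim3* transcript itself averaged -0.13 ± 0.19 in *sim3-205* and 0.11 ± 0.21 in *sim3-143*, which does not check the labels because a missense allele is still transcribed. The gene names in the files of *sim3-143* replicate 2 and *sim3-205* replicate 1 do not follow the printed spots, so all spots were named by position from the layout of *sim3-143* replicate 1.

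In *sim3-205*, *pil1* and *tea4* were the members past 1.5-fold, both lower than wild-type, and the other 6 members were not past it. Over all genes with 4 data points, 155 of 4832 were past 1.5-fold in *sim3-205*, or 3.21% in either direction, 2.61% higher and 0.6% lower. That contrast was used to choose *pil1* and *tea4*, so nothing is read from their count. In *sim3-143*, 0 of the 8 members were past 1.5-fold, against 168 of 4815 genes or 3.49%, 2.12% higher and 1.37% lower. With limma, 0 of 4810 genes had an adjusted p under 0.05 in either allele, while 424 genes of *sim3-205* and 424 of *sim3-143* had an unadjusted p under that value. The members' adjusted p in *sim3-143* lay between 0.595 and 0.984.

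**Figure D1:**
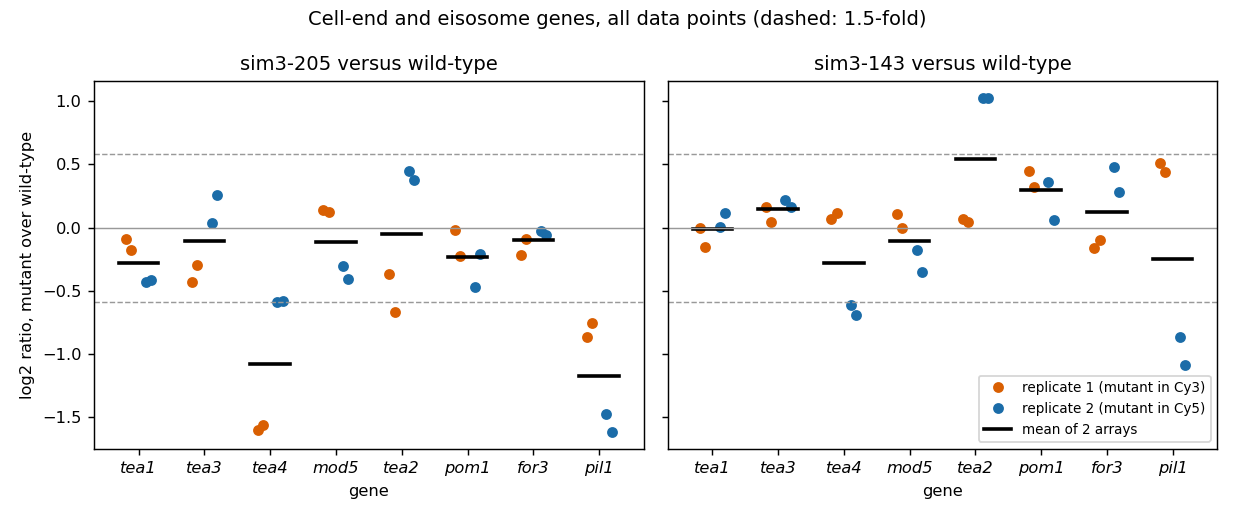
Log2 ratio of mutant over wild-type (vertical axis) for the 8 members (horizontal axis), with each spot of each array as a point, the arrays in different colours and the mean of 2 arrays as a bar; dashed lines mark 1.5-fold. All 4 points of *pil1* and 3 of 4 of *tea4* lie below the lower line in *sim3-205* (left), while in *sim3-143* (right) the replicate 1 and replicate 2 points of both genes lie on opposite sides of 0.

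The *pil1* transcript was the lower of these 2 genes. Its log2 ratio was -0.81 on *sim3-205* replicate 1 and -1.55 on replicate 2, a mean of -1.18 ± 0.52 or 0.443 of wild-type. The 4 data points were -0.86, -0.75, -1.48 and -1.62, so every spot was past 1.5-fold and the spots of one array lay closer together than the arrays did. By mean ratio, 14 genes were lower than *pil1* in *sim3-205*. On replicate 2 alone 10 of 4843 genes were lower, and on replicate 1 alone 152 of 4844.

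In *sim3-143* the *pil1* arrays disagreed in direction. The log2 ratio was 0.48 on replicate 1, higher than 94.9% of genes, and -0.97 on replicate 2, lower than all but 2.26% of genes. The mean was -0.25 ± 1.03 (limma, adjusted p = 0.809), and the SD is the largest of any member in either allele. In both alleles *pil1* was lower on the array with the mutant in Cy5. Replicate 2 minus replicate 1 was -0.74 in *sim3-205* and -1.45 in *sim3-143*. With a coefficient for dye orientation in the model, this difference was -1.10 ± 0.27 (SE) for *pil1*, with an adjusted p of 0.504 in limma, and 0 of 4810 genes passed for this coefficient (463 at an unadjusted p below 0.05). In *sim3-205* the array platform changes together with the dye orientation. The part of the dyes in the *pil1* values was not tested further.

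The scanner intensities show where the *pil1* ratios come from. On *sim3-205* replicate 2 the spots read 3904 and 3614 for the mutant, against 9782 and 10075 for wild-type. On *sim3-205* replicate 1 they read 5482.5 and 5801 for the mutant, against 5351 and 5521 for wild-type. The dyes of that array were not equally bright, with a median spot intensity of 1683 in Cy3, the mutant's dye, and 953 in Cy5, so near-equal raw values give a ratio below 1 once the dyes are balanced. On *sim3-143* replicate 2 the spots read 5415 and 5063 for the mutant, against 13589 and 14788 for wild-type. On *sim3-143* replicate 1 they read 17450 and 12523 for the mutant, against 13622.5 and 10140 for wild-type. Within each *pil1* spot, the raw mutant intensity was thus the higher on the replicate 1 arrays of both alleles and the lower on both replicate 2 arrays.

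**Figure D2:**
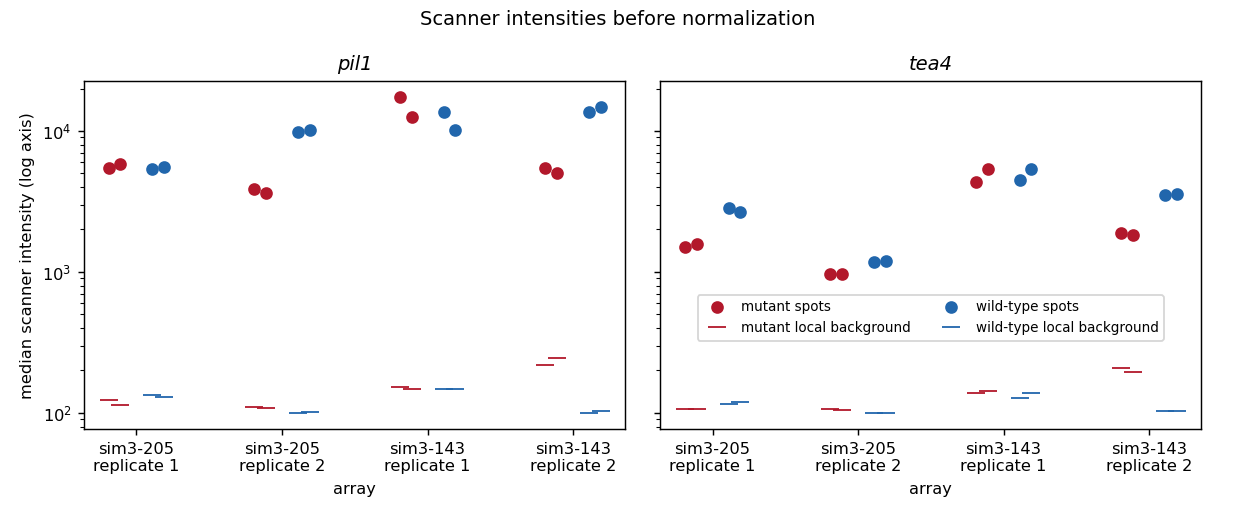
Median scanner intensity before normalization (vertical log axis) of the *pil1* and *tea4* spots on each array (horizontal axis), mutant in red and wild-type in blue, with dashes for the local background. Mutant spots of *pil1* lie below wild-type spots on replicate 2 of both alleles. Those of *tea4* lie below wild-type on all arrays but *sim3-143* replicate 1, where the ranges overlap though the mutant is slightly dimmer within each spot.

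The *tea4* transcript, which encodes the SH3-domain link between Tea1 and For3, had a log2 ratio of -1.58 on *sim3-205* replicate 1 and -0.58 on replicate 2. The mean was -1.08 ± 0.70, or 0.473 of wild-type, and 19 genes had a lower mean. Its data points were -1.60, -1.56, -0.59 and -0.58. The limit for 1.5-fold fell between the last 2 of these values, which places *tea4* at the edge of the rule, and median centring in place of loess left 2 of 4 points past it. The nearest member outside it was *tea2*, with 1 of 4 points past 1.5-fold in *sim3-205*, at -0.67.

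Before normalization the *tea4* spots on *sim3-205* replicate 1 read 1493 and 1566 for the mutant, against 2851 and 2668 for wild-type. On replicate 2 they read 966 and 967 for the mutant, against 1183 and 1187 for wild-type. The mutant was the dimmer on both slides, and by a wider margin where it carried Cy3. In *sim3-143* the log2 ratio of *tea4* was 0.09 on replicate 1 and -0.65 on replicate 2, with a mean of -0.28 ± 0.53 (limma, adjusted p = 0.728). The order of the arrays was opposite in the alleles, since replicate 2 minus replicate 1 was 0.99 in *sim3-205* and -0.74 in *sim3-143*.

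The region of the slide around the *tea4* probe was also low on *sim3-205* replicate 1. The probe lies in grid 8, where the median log2 ratio of the other 158 genes was -0.26 on *sim3-205* replicate 1, and -0.34 over the 8 spots next to it. On the other 3 arrays the grid median lay between -0.08 and 0.06. The 8 adjacent spots had a median of 0.02 on *sim3-205* replicate 2, and 0.03 and -0.21 on *sim3-143* replicates 1 and 2. Loess fitted within each grid gave *tea4* -1.14 on *sim3-205* replicate 1 and a mean of -0.87, with 4 of 4 points past 1.5-fold in place of 3. For *pil1*, in grid 11, the grid median on that array was -0.14, and the same loess gave a mean of -1.12. The 8 spots next to *pil1* had medians of -0.21 and -0.16 on *sim3-205* replicates 1 and 2. In *sim3-143* these medians were -0.003 on replicate 1 and -0.22 on replicate 2. The part of slide position in either value was not tested beyond this.

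**Figure D3:**
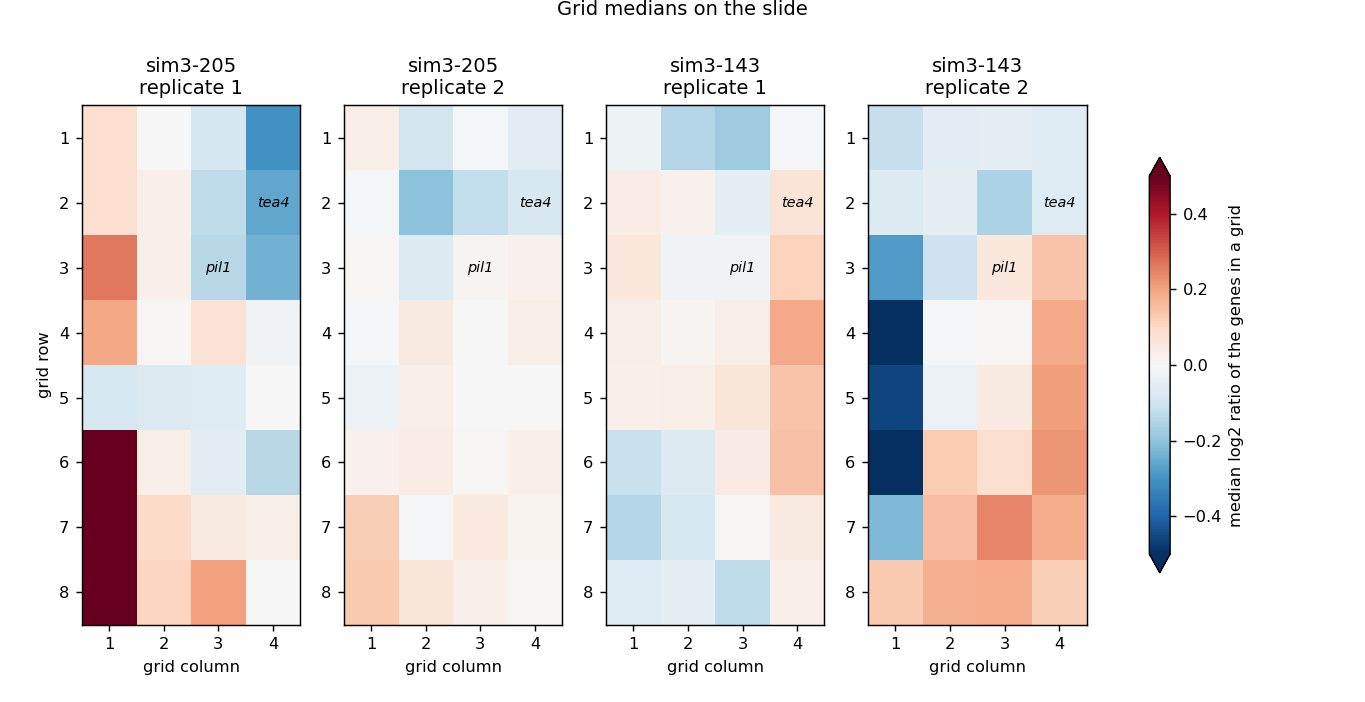
Median log2 ratio of the genes in each of the 32 grids (colour, clipped at the ends of the scale), laid out by grid column (horizontal) and grid row (vertical) for the 4 arrays, with the grids of *tea4* and *pil1* marked. On *sim3-205* replicate 1 the grid of *tea4* is among the lowest of the slide at -0.26, where grid medians run between -0.30 and 1.48.

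The other landmark genes had smaller ratios. *tea1*, which encodes the founding cell-end marker with kelch repeats, had -0.14 and -0.42 in *sim3-205* (mean -0.28 ± 0.20) and -0.08 and 0.06 in *sim3-143* (mean -0.01 ± 0.10). *tea3*, which encodes the Tea1-like protein that acts at the non-growing end, had -0.36 and 0.15 in *sim3-205* and 0.10 and 0.19 in *sim3-143*. *mod5*, for the membrane anchor of Tea1, had 0.13 and -0.35 in *sim3-205* and 0.05 and -0.26 in *sim3-143*. Of these 3 genes, only *tea1* was lower than wild-type on both *sim3-205* arrays, and 0 of their data points were past 1.5-fold.

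*tea2*, the kinesin gene, had a wider gap between dye orientations than between alleles. Its log2 ratio was -0.52 on replicate 1 and 0.41 on replicate 2 of *sim3-205*. In *sim3-143* it was 0.06 on replicate 1 and 1.03 on replicate 2. The mean was -0.05 ± 0.66 in *sim3-205* and 0.54 ± 0.69 in *sim3-143* (limma, adjusted p = 0.597 for *sim3-143*). The array with the mutant in Cy5 was higher by 0.93 in *sim3-205* and by 0.97 in *sim3-143*. The dye coefficient for *tea2* was 0.95 ± 0.20 (SE), with an unadjusted p of 0.0080 and an adjusted p of 0.504 in limma. *tea2* and *pil1* therefore leaned in opposite directions between the dye orientations, which in *sim3-205* also differ in array platform.

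*tip1*, whose product travels with Tea2, has no value here. A probe named *noc1* exists, and *noc1* is an older name of *tip1* in the gene table, but it is also the present symbol of another gene, SPAC4F10.09c, which has its own probe under its systematic identifier. The *noc1* probe read -0.90 and 0.04 in *sim3-205* (mean -0.43 ± 0.66) and 0.03 and -0.23 in *sim3-143* (mean -0.10 ± 0.19), with 2 of 4 points past 1.5-fold in *sim3-205*. It lies in grid 4, where the 8 spots next to it had a median of -0.78 on *sim3-205* replicate 1, and within-grid loess moved its mean in *sim3-205* to -0.12. The gene behind this probe was not settled, and it is not counted among the members.

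*pom1*, for the DYRK kinase of the cell-end gradient, was the member whose alleles lay on opposite sides of wild-type on every array. It had -0.12 and -0.34 in *sim3-205* (mean -0.23 ± 0.16) and 0.39 and 0.21 in *sim3-143* (mean 0.30 ± 0.13, limma, adjusted p = 0.595). Within-grid loess lowered its *sim3-143* mean to 0.17, with 0.05 on replicate 2. The difference, *sim3-205* minus *sim3-143*, was -0.53 ± 0.22 (SE), which did not pass limma's adjustment over 4810 genes (adjusted p = 0.703). As *pom1* was singled out for its opposite signs in these data, this p is a description only. Of all genes, 289 of 4810 or 6.01% were likewise lower on both *sim3-205* arrays and higher on both *sim3-143* arrays. *for3*, the formin gene, had -0.15 and -0.04 in *sim3-205* and -0.13 and 0.38 in *sim3-143*, and its *sim3-143* arrays fell on both sides of 0. On *sim3-205* replicate 1 the other genes of its grid had an SD of 1.18, where all genes had 0.661. The *sim3-205* mean of *for3* was -0.31 with within-grid loess and -0.01 with median centring.

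The median and counts over members in *sim3-205* include *pil1* and *tea4*, which were chosen for low values there, so they are given as a description only. The members' median log2 ratio was -0.17 in *sim3-205*, where all genes had 0.01, and 0.06 in *sim3-143*, where all genes had -0.01. In *sim3-205*, 5 of the 8 were lower on both arrays (25.7% of all genes were) and 0 were higher on both (28.5%). The lower ones were *tea1*, *tea4*, *pom1*, *for3* and *pil1*. In *sim3-143*, 3 of the 8 were higher on both arrays, namely *tea2*, *tea3* and *pom1* (32.8% of all genes were), and 0 were lower on both (32.9%).

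**Figure D4:**
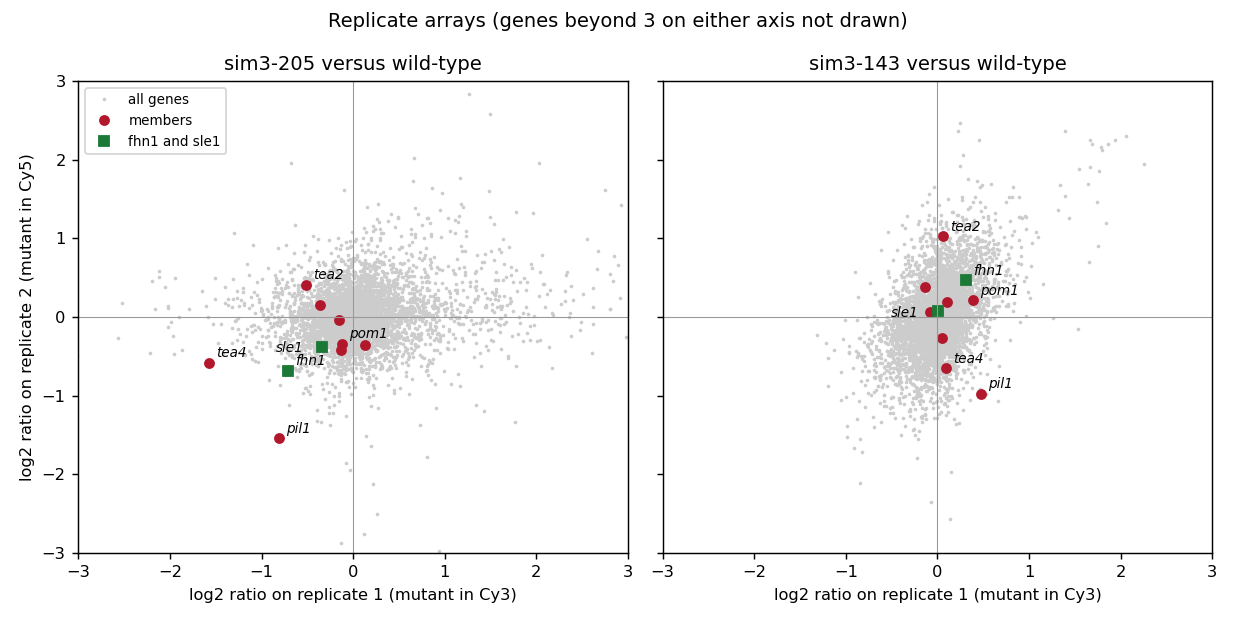
Log2 ratio on replicate 1 (horizontal) against replicate 2 (vertical) for *sim3-205* (left) and *sim3-143* (right), with all genes in grey, the 8 members in red and *fhn1* and *sle1* in green; 39 genes in *sim3-205* and 2 in *sim3-143* lie beyond the axes. *pil1* (-0.81 and -1.55) and *tea4* (-1.58 and -0.58) lie at the lower left edge in *sim3-205*, while *pil1* in *sim3-143* lies at the lower right, at 0.48 and -0.97.

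The member spots were clean and above background, but not all were bright. On *sim3-205* replicate 1 the wild-type spots of *mod5* read 554 and 650, where the median spot intensity in Cy5 was 953. Over the 64 member spots, mutant and wild-type intensities were between 4.28 and 144 times the local background, 0 spots carried a code of the image software and 0 were saturated. The 2 spots of an array differed by at most 0.30 for any member. In 11 of the 16 pairs of a member and an allele, the arrays differed by more than the spots did, with a median gap of 0.50 between arrays and 0.15 between spots. The spread between arrays, not that between spots, thus sets the precision of these values.

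A list of 11 genes of eisosomes, plasma membrane domains and TORC2, the kinase complex of membrane stress, was examined beside *pil1*. Its median was -0.10 in *sim3-205* and -0.07 in *sim3-143*, where all genes had 0.01 and -0.01. In *sim3-205*, 2 of the 11 were past 1.5-fold, both lower (0.6% of all genes were past it in that direction), and in *sim3-143* 0 were (3.49% in either direction). Within-grid loess left 0 past it in either allele. In *sim3-205*, 6 of the 11 were lower on both arrays and 1 was higher on both, against 25.7% and 28.5% of all genes. The lower ones were *fhn1*, *sle1*, *myo1*, *meu14*, *its3* and *ste20*. Of these, *its3* (-0.04 and -0.06) and *ste20* (-0.10 and -0.09) lay near 0, as did *meu14* on replicate 1 (-0.04). The higher one was *gad8*, with 0.45 and 0.21 in *sim3-205* and 0.09 and 0.31 in *sim3-143*. limma called 0 of the 11 in either allele. The list was drawn up with *pil1* already known to be low.

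One of those past 1.5-fold in *sim3-205* was *fhn1* (SPBC1685.13), for a membrane protein of eisosomes related to budding yeast Nce102. It had -0.71 and -0.68 in *sim3-205* and 0.31 and 0.46 in *sim3-143*. The means were -0.70 ± 0.02 in *sim3-205* (limma, adjusted p = 0.491) and 0.39 ± 0.11 in *sim3-143* (adjusted p = 0.553). All 4 points were past 1.5-fold in *sim3-205*. *fhn1* was lower on both *sim3-205* arrays and higher on both *sim3-143* arrays, as 6.01% of all genes were. The difference between the alleles was -1.08 ± 0.21 (SE), with an unadjusted p of 0.0034 and an adjusted p of 0.703 in limma. *fhn1* is named for its low *sim3-205* values, so this unadjusted p is a description only. The *fhn1* probe lies in grid 12, whose median was -0.24 on *sim3-205* replicate 1 and 0.02 on replicate 2, and within-grid loess left a mean of -0.55 with 2 of 4 points past 1.5-fold.

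*sle1* (SPAC1A6.07), for another eisosome protein, had -0.34 and -0.38 in *sim3-205* and 0.00 and 0.07 in *sim3-143*. Its means of -0.36 ± 0.03 in *sim3-205* and 0.04 ± 0.05 in *sim3-143* were not past 1.5-fold. Its grid medians on the *sim3-205* arrays were both 0.05, on the other side of 0. In *sim3-143*, *fhn1* and *sle1* were above 0 on both arrays, though for *sle1* within-grid loess gave -0.20 and median centring gave -0.03. Of the *pil1* paralogues, *pil2* had 0.13 on *sim3-205* replicate 2, and 0.21 and -0.72 in *sim3-143*, and its probe lies in a grid of unrelated dyes on *sim3-205* replicate 1. *meu14*, the paralogue used in spore formation, had -0.04 and -0.89 in *sim3-205* and -0.17 and -1.26 in *sim3-143*, below 0 on all 4 arrays. In *sim3-143*, *pil2* lay above 0 on replicate 1 and below it on replicate 2, as *pil1* did. The *pil2* probe lies in grid 21, whose median of -0.58 was the lowest of *sim3-143* replicate 2. Within-grid loess gave *pil2* 0.30 and 0.06 in *sim3-143*, above 0 on both arrays. It left *pil1* on opposite sides of 0, at 0.595 and -0.998, so the likeness was absent in that setting. The part of slide position in the *pil2* values was not tested further.

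The other gene of the list past 1.5-fold in *sim3-205* was *myo1* (SPBC146.13c), for the type I myosin of endocytic actin patches. It had -0.82 and -0.62 in *sim3-205* (mean -0.72 ± 0.14, limma, adjusted p = 0.491) and 0.22 and 0.12 in *sim3-143* (mean 0.17 ± 0.07). It was lower on both *sim3-205* arrays and higher on both *sim3-143* arrays, as 6.01% of all genes were. Its probe shares grid 8 with *tea4*, and within-grid loess gave a mean of -0.50 in *sim3-205* with 1 of 4 points past 1.5-fold. The part of slide position in the *fhn1* and *myo1* values was not tested beyond these values.

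**Figure D5:**
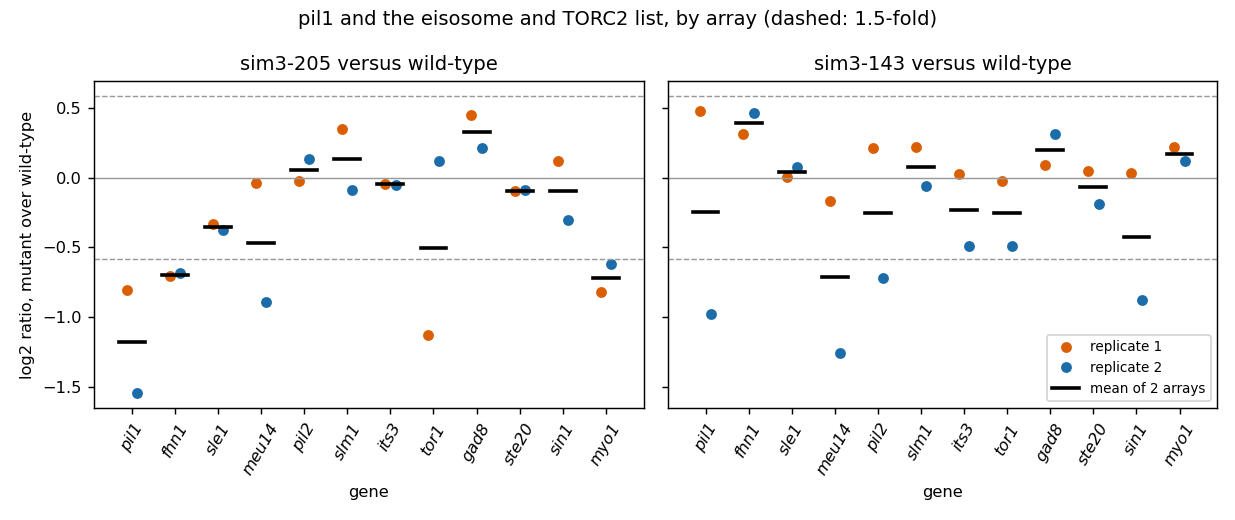
Log2 ratio on each array (points) and mean of 2 arrays (bars) for *pil1* and the 11 genes of the eisosome and TORC2 list, in *sim3-205* (left) and *sim3-143* (right); dashed lines mark 1.5-fold. *pil1* and 6 of the 11 listed genes, *fhn1*, *sle1* and *myo1* among them, lie below 0 on both *sim3-205* arrays, while *gad8* lies above 0 on both. Of the lower ones, *its3* and *ste20* lie close to 0 on both *sim3-205* arrays. *fhn1*, *sle1*, *myo1* and *gad8* lie at or above 0 on both *sim3-143* arrays. The *sim3-205* replicate 1 points of *pil2* and *tor1* come from grids of unrelated dyes.

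Of 15 genes that act at microtubule plus ends and in their organisation, 0 were past 1.5-fold in either allele, and their median was -0.03 in *sim3-205* and -0.03 in *sim3-143*. *mal3*, for the EB1 protein that recruits Tea2 and Tip1, averaged -0.18 ± 0.29 in *sim3-205* and -0.03 ± 0.17 in *sim3-143*. *peg1*, for the CLASP protein that stabilizes microtubules, averaged 0.06 ± 0.09 in *sim3-205* and 0.44 ± 0.43 in *sim3-143*. *ase1*, for the bundling protein of antiparallel microtubules, averaged -0.32 ± 0.39 in *sim3-205* and -0.48 ± 0.58 in *sim3-143*, and was lower than wild-type on all 4 arrays.

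The Cdc42 module, actin cables and cell-end growth were represented by 27 of 28 listed genes, with a median of 0.06 in *sim3-205* and -0.07 in *sim3-143*. In *sim3-205* 0 were past 1.5-fold, and in *sim3-143* 1 of the 27 was, where 3.49% of all genes were. That gene was *ras1*, for the GTPase that acts upstream of Cdc42, printed under its older name *ste5*, at -0.69 and -0.54 in *sim3-143* (mean -0.62 ± 0.11, limma, adjusted p = 0.569). Within-grid loess left *ras1* with 2 of 4 points past 1.5-fold in *sim3-143*, which ends that call. Its probe lies in 1 of the grids of *sim3-205* replicate 1 with unrelated dyes, so no *sim3-205* level is given. Values of *ras1* and of other listed genes in such grids do enter the *sim3-205* median and count of this list. *act1*, for actin, averaged 0.17 ± 0.51 in *sim3-205* and -0.64 ± 0.19 in *sim3-143* (limma, adjusted p = 0.549), with 2 of 4 points past 1.5-fold in *sim3-143*. Within-grid loess gave *act1* -0.74 in *sim3-143* with 4 of 4 points past 1.5-fold, and median centring gave 3 of 4. Of the 27 genes, 2 were past 1.5-fold in *sim3-143* with within-grid loess. *cdc8*, for the tropomyosin of actin cables, averaged 0.62 ± 0.17 in *sim3-205* (limma, adjusted p = 0.523) and 0.32 ± 0.09 in *sim3-143*, and lay above 0 on each of the 4 arrays. *cdc42* itself averaged 0.02 ± 0.39 in *sim3-205* and -0.31 ± 0.14 in *sim3-143*.

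The formins other than *for3* were not past 1.5-fold in either allele. *cdc12*, for the formin of the division ring, averaged 0.19 ± 0.30 in *sim3-205* and 0.25 ± 0.15 in *sim3-143*. *fus1*, for the formin of mating cells, averaged 0.41 ± 0.51 in *sim3-205* and 0.39 ± 0.19 in *sim3-143*, and was above 0 on all 4 arrays.

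Of the 10 genes of Pom1 substrates and the cell size pathway, 0 were past 1.5-fold in either allele, with medians of -0.01 in *sim3-205* and -0.21 in *sim3-143*. *cdr2*, for the node kinase that Pom1 inhibits, had 1.48 and -0.16 in *sim3-205* and -0.11 and -0.53 in *sim3-143*. Its 1.48 was read in a grid of unrelated dyes, so its *sim3-205* level rests on replicate 2. Within-grid loess gave *cdr2* -0.01 and 0.01 in *sim3-143*. *blt1*, for a node protein that binds Cdr2, had -0.34 and -0.34 in *sim3-205* and 0.41 and 0.17 in *sim3-143*. *rga4*, for the Cdc42 GAP on the cell sides, had 0.29 and -0.06 in *sim3-205* and -0.64 and -0.44 in *sim3-143*. *blt1* thus lay on opposite sides of wild-type in the alleles, as *pom1* did, and *rga4* was lower than wild-type on both arrays in *sim3-143* alone. Within-grid loess gave *rga4* -0.65 in *sim3-143* with 3 of 4 points past 1.5-fold, so that 1 of the 10 genes was past it in that setting.

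The protein-coding genes nearest to *tea4* and *pil1* on the chromosome were less low than these genes in *sim3-205*. *tea4* and *pil1* were chosen as among the lowest genes there, so nearly any neighbour would be less low and nothing is read from this. In *sim3-205* the flanking protein-coding genes of *tea4*, *fap1* and *fzo1*, averaged -0.15 and -0.08, and those of *pil1*, *dis1* and *duc1*, averaged -0.21 and -0.28. *fap1*, *dis1* and *duc1* were lower than wild-type on both *sim3-205* arrays, as 25.7% of all genes were, while *fzo1* had -0.34 and 0.19. In *sim3-143* they averaged 0.02 and 0.29 beside *tea4*, and 0.21 and 0.07 beside *pil1*. None of their data points was past 1.5-fold in either allele. *dis1*, for a microtubule polymerase of the XMAP215 family, also belongs to the microtubule list. Between these genes and the members the gene table places long non-coding RNAs, for which no probe was found.

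The genes with the most similar pattern were found by Euclidean distance over the 8 data points of both alleles, among 4799 genes with all 8. For *tea4* they were *srb10*, a kinase of the Mediator complex, at a distance of 0.651, *rpl4*, a ribosomal protein gene, at 0.753, and *lys2*, of lysine synthesis, at 0.814. All 3 probes lie in grid 4, which adjoins the grid of *tea4* and had the lowest grid median of *sim3-205* replicate 1, at -0.30. They had -1.33, -1.12 and -1.18 on that array. For *pil1* the nearest were *gpd3*, a glyceraldehyde-3-phosphate dehydrogenase gene, at 1.09, SPAC8C9.04 at 1.28 and SPAPB2C8.01 at 1.32, and these lie in grids 8, 32 and 20. All 3 of these grids, like grid 4, belong to grid column 4 of the slide, whose median log2 ratio was -0.10 on *sim3-205* replicate 1 and 0.12 on *sim3-143* replicate 2, while *pil1* itself lies in column 3. The nearest genes of *pil1* were thus farther from it than those of *tea4* were.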

How the data were processed

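mRNA levels were measured on 4 spotted ORF arrays, 2 per allele. The authors deposited 8 scanner files that give, per dye, the median intensity of every spot and of the background around it, without normalization. They also deposited log2 ratios made in GeneSpring with a Lowess normalization, whose direction and scale were found from the scanner values and whose background treatment is not given in the sources used here. The medians of these deposited log2 ratios were -0.0634 (replicate 1) and 0.0086 (replicate 2) in *sim3-205*, and 0.0029 (replicate 1) and 0.0718 (replicate 2) in *sim3-143*.

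Background was removed by normexp with an offset of 50, and loess with a span of 0.3 balanced the dyes in each spot file with limma 3.58.1 in R 4.3.3. Ratios were turned to mutant over wild-type. Control and empty spots, spots of 0 intensity and spots that the image software had given either of 2 rejection codes were not used. The 2 spots of a probe were averaged before lmFit and eBayes, with a coefficient for each allele over all 4 arrays and Benjamini-Hochberg adjustment over 4810 genes. The scripts were tested on simulated data. There is no sequencing depth here, and precision is limited by the number of arrays.

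Of 4847 gene names, 4662 (96.2%) matched the RefSeq gene table (assembly ASM294v3), which served for names and neighbouring genes only. Named are all members, genes of 5 lists past 1.5-fold with up to 3 others per list, the 3 genes of nearest pattern and the flanking genes. *gad8*, *tor1*, *its3* and *ste20* of the eisosome and TORC2 list are named in addition. Members and lists were chosen with earlier results of these data known. The alternatives were other background corrections, print-tip loess, median centring, the deposited log2 ratios, dim or coded spots or grids of unrelated dyes left out, other rules and thresholds, a dye coefficient, an allele alone and each array left out. Names as written were added after the data were seen. Counts and figures were made in Python 3.11.15 with pandas 2.3.3, numpy 2.4.6 and matplotlib 3.10.9.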

Additional observations from a re-analysis of the deposited data

Results flagged for a closer look

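Among the genes named, 5 lay on opposite sides of wild-type in the alleles, lower on both *sim3-205* arrays and higher on both *sim3-143* arrays, as 6.01% of all genes did. The difference, *sim3-205* minus *sim3-143*, was -0.53 for *pom1*, -1.08 for *fhn1*, -0.39 for *sle1*, -0.89 for *myo1* and -0.63 for *blt1*. limma gave each an adjusted p of 0.703, so none passed, and 0 of 4810 genes passed for this difference (246 at an unadjusted p below 0.05). The unadjusted p was 0.063 for *pom1*, 0.0034 for *fhn1*, 0.113 for *sle1*, 0.0088 for *myo1* and 0.034 for *blt1*. The 5 genes were picked from these data for this same difference in direction. Their unadjusted p-values are therefore a description, and nothing is read from them or from the number of genes. Under print-tip loess the *sim3-143* mean of *sle1* was -0.20, so that its alleles were then on the same side, and *blt1* on *sim3-143* replicate 2 was -0.02.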

How the results depend on the processing

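Mutant and wild-type were paired within each array by the log2 ratio. Arrays were not paired between alleles because the labels give no replicate numbers, and the numbers used here only name the arrays. Of 125 alternative values of counts and medians, 86 stayed within 1.5 times the count or 1 SD of the median, and the rest moved. The mean of a single gene changed sign in 13 of 471 values with both arrays kept and names by position, in 27 of 66 with names as written, and in 27 of 132 with 1 array left out, *pil1* (0.48) and *tea4* (0.09) in *sim3-143* without replicate 2 among them. Of the genes past 1.5-fold, *fhn1* (0.46) and *myo1* (0.22) in *sim3-205* changed sign, both with names as written, a setting that puts other spots under each name on 2 arrays. That setting gave *pil1* -0.84 and *tea4* -0.95. Over the alternatives that kept both arrays and the names by position, *pil1* in *sim3-205* lay between -1.19 and -1.11, and *tea4* between -1.17 and -0.87. The 2 members past 1.5-fold in *sim3-205* became 1 with median centring, with names as written and with all 4 data points required, 0 at 2-fold and 0 with the deposited log2 ratios, which gave values for 1 member. Without 1 array the count was 1 to 2, with *pil1* left when replicate 1 was out, and in *sim3-143* it was 0 to 3, with 3 when replicate 1 was out. The members' median in *sim3-205* was -0.27 with print-tip loess, -0.28 with median centring, -0.013 with names as written and -0.35 to -0.26 without 1 array. In *sim3-143* it was 0.022 with print-tip loess, 0.15 with the deposited log2 ratios (1 member), 0.020 with names as written and 0.075 to 0.13 without 1 array. The 155 genes past 1.5-fold in *sim3-205* became 100 with print-tip loess, 77 with the deposited log2 ratios, 103 without the grids of unrelated dyes, 73 with names as written, 76 with all 4 data points, 463 by the mean, 32 at 2-fold and 357 to 614 without 1 array. The 168 in *sim3-143* became 64 with the deposited log2 ratios, 37 with names as written, 100 with all 4 data points, 404 by the mean, 26 at 2-fold and 214 to 795 without 1 array. limma's 0 genes in *sim3-143* became 9 without the grids of unrelated dyes, 57 with the *sim3-143* arrays alone and 0 to 57 without 1 array, where *sim3-205* replicate 1 or 2 was the array left out for 57 or 55. In *sim3-205* limma called 0 to 363 genes without 1 array (22 without replicate 1 and 363 without replicate 2, where *tea4* was the 1 member among them, in the contrast that chose it), and for the difference between alleles 0 to 351 (8 without *sim3-205* replicate 1 and 351 without replicate 2). The causes were not tested. With 1 array left in an allele, its spread is assumed to equal that of the other allele.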
